A study of Mus musculus with 2 samples.

Results

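The 10 genes Il12rb1, Il12rb2, Il18r1, Il18rap, Il27ra, Il6ra, Il6st, Il10ra, Ifngr1 and Ifngr2 encode chains of the receptors for interleukins 12, 18, 27, 6 and 10 and for interferon gamma. They were chosen by name, and every non-control probe whose transcript accession belongs to 1 of them was taken. All 10 had a probe, 12 probes in all, among 17176 genes named on the array. The samples were CD8+ cytotoxic T cells and CD4+ helper T cells from wild-type C57B6 mice, both obtained from splenocytes by cell sorting, with 1 one-colour Agilent array for each cell type. The labels name no treatment besides the sort, and the sources used here give neither the age and number of mice nor the gates of the sort.

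These receptors tell a T cell which cytokines surround it. IL-12 and interferon gamma push T cells towards interferon gamma production, and IL-18 strengthens that response together with IL-12. The gp130 chain, encoded by Il6st, passes on the signals of IL-6 and IL-27 once a partner chain has bound the cytokine, and IL-10 restrains the response. Most of these receptors need a pair of different chains, so the transcripts of both chains bear on what a cell can sense.

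With 1 array per cell type there were no replicates, so no difference could be tested and precision is limited by the number of arrays. Levels are the log2 of the processed signal minus the array's own 75th percentile, and differences are the CD8+ array minus the CD4+ array, so a positive value means higher in CD8+ cells, which here means their 1 array. That percentile was a processed signal of 449.9 on the CD8+ array and 508.4 on the CD4+ array. The only spread at hand was technical, an SD of 0.23 in the log2 difference between probes of the same gene (3972 genes). It pools probes of any brightness that were well above background on both arrays. Errors printed after a signal are the scanner software's own estimate for that spot, not a replicate error. On the CD8+ array 58.6% of the non-control spots were well above background, against 63.1% on the CD4+ array. Of the T cell markers, 10 of 10 with a probe were well above background on both arrays, and Cd8a (log2 difference 6.72) and Cd4 (-2.04) followed the labels.

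Of the 10 receptor genes, 9 were well above background on both arrays, where 69.6% of all genes were, and Il12rb2 was on neither. Il18rap, the accessory chain of the IL-18 receptor, was the only member at least 2-fold apart, and it was higher in CD8+ cells. Il27ra, the IL-27 chain, Il6st and Ifngr1, the binding chain for interferon gamma, were higher there by smaller amounts, and Ifngr2, its signalling chain, was lower. Il12rb1, Il6ra, Il10ra and Il18r1 differed by no more than 0.25 in either direction. Among all 11957 genes above background on both arrays, 1.94% were at least 2-fold higher in CD8+ cells and 3.83% in CD4+ cells; of the 9 receptors, 1 was in CD8+ cells and 0 were in CD4+ cells. These were 232 genes for CD8+ cells and 458 for CD4+ cells. Median scaling gave 320 genes for CD8+ cells and 366 for CD4+ cells. It raised every difference by 0.14, so that small negative values printed here turn positive under it, and the median of all genes was then 0.17, against 0.02. At least 1.5-fold higher in CD8+ cells were Il18rap and Il27ra, 2 of 9, where 5.50% of all genes were. By the probe used for each gene, no receptor was 1.5-fold higher in CD4+ cells, where 8.54% were, although the dimmer probe of Ifngr2 passed 1.5-fold. The median difference of the 9 receptors was 0.12, and 5 were above 0, where 53.7% of all genes were.

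**Figure D1:**
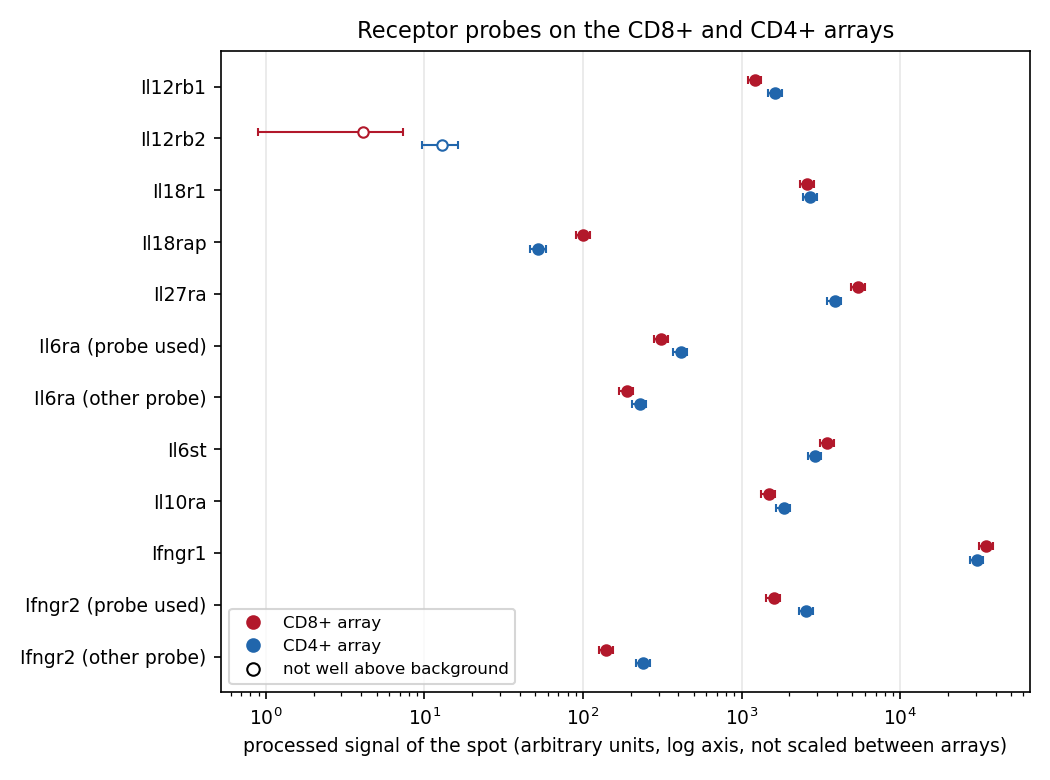
Processed signal of each of the 12 receptor probes (arbitrary units, log axis, before scaling) on the CD8+ array and the CD4+ array, with bars for the software's error of the spot. The open points of Il12rb2, at 4.09 on the CD8+ array and 12.96 on the CD4+ array, are not well above background, and levels of different probes are not comparable with each other.

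Il18rap and Il18r1 encode the chains of the IL-18 receptor. Il18r1 binds the cytokine, and Il18rap joins the complex so that the adaptor MyD88 can be recruited. They lie next to each other on chromosome 1. The 250 bases before the annotated start of each are shown because these neighbouring chains differed unequally between the arrays. They are RefSeq sequences of build GRCm38.p6 on the plus strand, chr1:40515112-40515361 for Il18rap and chr1:40465302-40465551 for Il18r1, with CG dinucleotides in capitals.
Il18rap: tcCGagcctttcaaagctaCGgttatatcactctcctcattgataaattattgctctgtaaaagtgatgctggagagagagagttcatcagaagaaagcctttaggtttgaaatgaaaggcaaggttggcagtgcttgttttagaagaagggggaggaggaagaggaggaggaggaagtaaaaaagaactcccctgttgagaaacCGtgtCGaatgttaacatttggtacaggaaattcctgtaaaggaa
Il18r1: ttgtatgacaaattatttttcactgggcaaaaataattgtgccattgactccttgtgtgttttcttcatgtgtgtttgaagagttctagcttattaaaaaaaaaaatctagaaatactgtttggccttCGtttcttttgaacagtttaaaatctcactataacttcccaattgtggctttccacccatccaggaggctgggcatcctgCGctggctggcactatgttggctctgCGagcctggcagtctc
The Il18rap window held 4 CG dinucleotides and the Il18r1 window 3, where the median over 27018 promoters was 6. Il18r1 has other starts listed within the same gene, which are not shown.

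Il18rap had a processed signal of 100.4 ± 10.5 on the CD8+ array, against 52.2 ± 5.94 on the CD4+ array. Before scaling its log2 difference was 0.94, short of 2-fold. After scaling it was 2.17-fold higher in CD8+ cells (log2 difference 1.12), 4.8 times the SD between probes. That SD pools bright and dim probes, so it may be too small for a probe as dim as this. Only 184 of the 11957 genes, 1.5%, had a larger difference in that direction. The spot was dim on both arrays, with a median pixel signal of 142 over a local background of 49 on the CD8+ array and of 98 over 47.5 on the CD4+ array. The log2 difference was 0.69 with the authors' series values, which hold no background subtraction, and 0.62 (1.54-fold) with normexp, which adds an offset of 50, and neither passed 2-fold. Il18rap was measured by 1 probe.

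Il18r1 was much alike on both arrays, with 2595 ± 259.5 on the CD8+ array and 2706 ± 270.7 on the CD4+ array. Its log2 difference of 0.12 lay within the SD between probes, and its sign came from the scaling, since the signal before scaling was slightly lower in CD8+ cells (log2 difference -0.06). The difference of Il18rap exceeded that of Il18r1 by 1.0, a value that no scaling of a whole array can change. That is 3.1 times the SD of 0.33 for a pair of probes, which likewise pools bright and dim probes. It ranged over the alternatives from 0.43 with normexp to 1.16 with quantile normalization. NK cells also carry IL-18 receptor chains. Of 7 NK cell markers, 6 were well above background on both arrays and 5 of these were lower in CD8+ cells, with a median of -0.81. Their summed level, in units of each array's 75th percentile, was 13.7 on the CD8+ array and 27.1 on the CD4+ array. Tyrobp, at log2 levels of 3.15 on the CD8+ array and 4.32 on the CD4+ array, made up most of both sums. The part of NK cells in the Il18rap difference was not tested.

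Il12rb1 encodes the chain shared by the receptors of IL-12 and IL-23, and Il12rb2 the chain that makes the receptor specific for IL-12 and docks STAT4. Il12rb1 had 1214 ± 121.5 on the CD8+ array, against 1637 ± 163.7 on the CD4+ array, a log2 difference of -0.25 that was 1.1 times the SD between probes. Il12rb2 had 4.09 ± 3.20 on the CD8+ array and 12.96 ± 3.30 on the CD4+ array and was not well above background on either, so it has no fold. Its median pixel signal was 50 over a local background of 55 on the CD8+ array and 58 over 57 on the CD4+ array. The IL-12 receptor was thus measured by its shared chain alone. Il23r, the partner of Il12rb1 in the IL-23 receptor and the neighbour of Il12rb2 on chromosome 6, had 4.7 on the CD8+ array and 15.8 on the CD4+ array and was detected (well above background) only on the CD4+ array, with no fold over the detection limit.

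Il27ra pairs with gp130 to form the IL-27 receptor. Il27ra had 5461 ± 546.1 on the CD8+ array, against 3859 ± 385.9 on the CD4+ array, 1.60-fold higher after scaling (log2 difference 0.68). This was 2.9 times the SD between probes, and 4.3% of all genes had a larger difference in the same direction. Over 11 alternatives the difference stayed between 0.63 and 0.82.

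Il6st had 3463 ± 346.3 on the CD8+ array, against 2900 ± 290.1 on the CD4+ array, a log2 difference of 0.43 (1.35-fold, 1.9 times the SD between probes). Il6ra, which binds IL-6 before gp130 joins, was measured by 2 probes that lay on the other side of 0. The brighter had 310.5 ± 31.2 on the CD8+ array and 412.5 ± 41.4 on the CD4+ array, a difference of -0.23. The dimmer had 189.0 ± 19.2 on the CD8+ array and 227.9 ± 23.0 on the CD4+ array, a difference of -0.09. Both lie within about the SD between probes, and the mean over both was -0.16. Il6st exceeded Il6ra in its difference by 0.67, 2.0 times the SD for a pair of probes, while Il27ra exceeded Il6st by 0.25, which is 0.7 times that SD.

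Il10ra, the chain that binds IL-10, had 1483 ± 148.3 on the CD8+ array, against 1843 ± 184.3 on the CD4+ array. Its difference of -0.14 was 0.6 times the SD between probes and became 0.01 with median scaling. Its partner Il10rb had no named probe and is not analysed here.

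**Figure D2:**
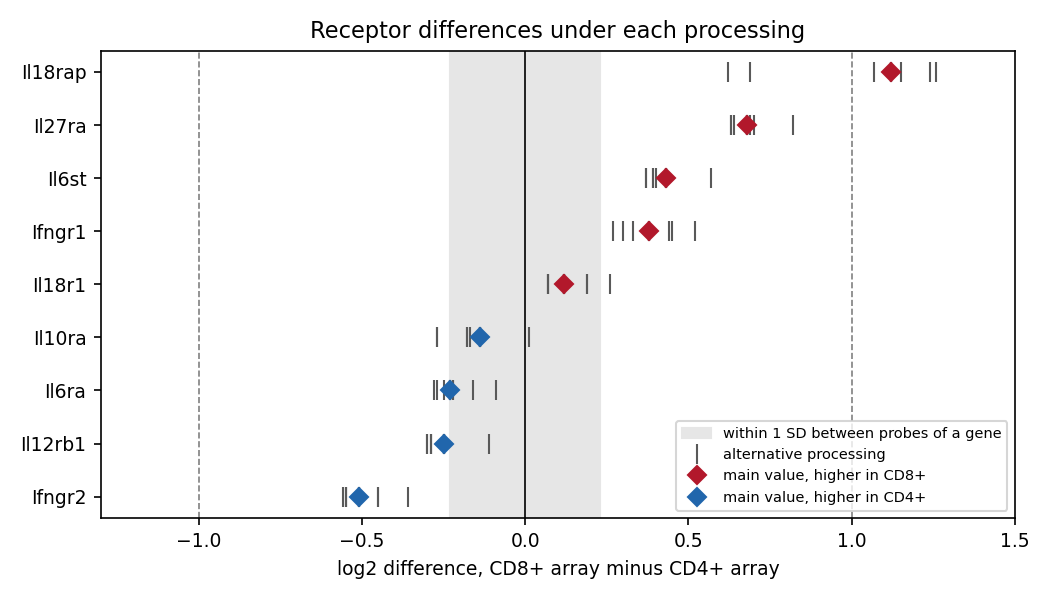
Log2 difference (CD8+ array minus CD4+ array) of the 9 receptors above background on both arrays. Diamonds are the main values, ticks the alternative processings, the grey band 1 SD between probes of a gene (0.23), and dashed lines 2-fold. Il18rap spans 0.62 to 1.26, Il10ra alone has ticks on both sides of 0, and Ifngr2 stays between -0.56 and -0.36.

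Ifngr1 and Ifngr2 encode the interferon gamma receptor. Ifngr1 binds the cytokine with JAK1 attached, and Ifngr2 brings JAK2 and is needed for signalling. The 250 bases before each start are shown since these chains too went apart; the RefSeq windows (GRCm38.p6, plus strand) are chr10:19591699-19591948 for Ifngr1 and chr16:91546809-91547058 for Ifngr2, with CG dinucleotides in capitals.
Ifngr1: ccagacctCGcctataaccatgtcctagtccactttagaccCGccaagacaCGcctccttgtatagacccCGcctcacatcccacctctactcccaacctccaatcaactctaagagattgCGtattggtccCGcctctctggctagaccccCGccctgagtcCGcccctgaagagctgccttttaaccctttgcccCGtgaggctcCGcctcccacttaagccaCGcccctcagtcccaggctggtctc
Ifngr2: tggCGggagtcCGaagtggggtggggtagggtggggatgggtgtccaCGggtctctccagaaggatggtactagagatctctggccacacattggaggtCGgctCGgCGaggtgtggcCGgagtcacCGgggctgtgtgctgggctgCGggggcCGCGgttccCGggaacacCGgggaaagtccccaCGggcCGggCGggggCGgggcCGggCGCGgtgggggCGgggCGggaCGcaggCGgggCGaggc
The Ifngr1 window held 11 CG dinucleotides at a GC content of 59.2%, and the Ifngr2 window 25 at 74.0%, against 4 at 42.0% for Il18rap and 3 at 40.8% for Il18r1. On either strand, the STAT motif TTCNNNGAA, the T-box motif AGGTGTGA and the Runx motif TGTGGT, none overlapping another, were found in none of the 4 windows. They occurred in 7.18%, 1.14% and 14.2% of 27018 windows of this length, 1 per gene. Of the member windows not printed, 1 at another listed start of Il18r1 held the STAT motif at 2 places, and the window of Il12rb2 held it at 1. The Il6ra and Il6st windows held none of the 3 motifs.

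Ifngr1 had 35027 ± 3503 on the CD8+ array, against 30503 ± 3050 on the CD4+ array, a log2 difference of 0.38 (1.30-fold, 1.6 times the SD between probes). Ifngr2 went the other way by both of its probes. The brighter had 1596 ± 159.6 on the CD8+ array, against 2560 ± 256.0 on the CD4+ array, a difference of -0.51 (1.42-fold higher in CD4+ cells, 2.2 times the SD between probes). The dimmer had 140.4 ± 14.4 on the CD8+ array, against 240.3 ± 24.2 on the CD4+ array, a difference of -0.60 (1.51-fold higher in CD4+ cells). No spot of either gene was saturated. Ifngr1 exceeded Ifngr2 in its difference by 0.88, 2.7 times the SD for a pair of probes, and the value lay between 0.82 and 0.93 over 11 alternatives. Scaling of whole arrays cannot change this value, and the filters on spots and probes left both probes as they were. The alternatives that could move it were normexp, the series values, quantile and loess normalization and the mean over probes. Under these too, the Ifngr1 difference exceeded that of Ifngr2.

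**Figure D3:**
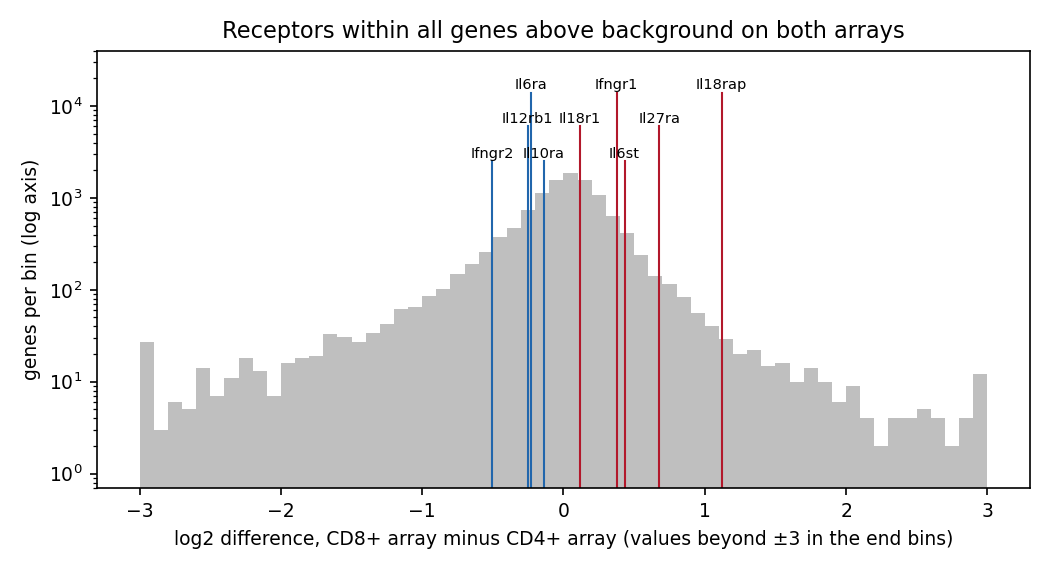
Histogram of the log2 difference (CD8+ array minus CD4+ array) of the 11957 genes above background on both arrays, with a log axis for genes per bin and vertical lines at the 9 receptors. Il18rap at 1.12 and Il27ra at 0.68 lie in the right flank, with 1.5% and 4.3% of genes beyond them, and Ifngr2 at -0.51 has 10.2% of genes below it.

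Markers of other cells also differed between the arrays. Monocytes and macrophages carry IL-6, IL-10 and interferon gamma receptors, and 7 of 7 of their markers with a probe were well above background on both arrays. Of these 6 were lower in CD8+ cells (median -0.47), with a summed level of 28.3 on the CD8+ array and 37.4 on the CD4+ array. The chains of those receptors went both ways. Ifngr2 was lower in CD8+ cells, Ifngr1 (0.38) and Il6st (0.43) were higher, and Il6ra and Il10ra lay within about the SD between probes. Dendritic cell markers had a median of -1.15 over 6 genes, with sums of 3.54 on the CD8+ array and 7.75 on the CD4+ array. Plasma cell markers had -0.73 over 5 genes, with sums of 3.24 on the CD8+ array and 5.52 on the CD4+ array. B cell markers were higher in CD8+ cells for 8 of 9 (median 0.51), with sums of 42.2 on the CD8+ array and 32.02 on the CD4+ array. Neutrophil markers had a median of 0.10 over 4 genes, with sums of 2.94 on the CD8+ array and 2.53 on the CD4+ array. Regulatory T cell genes were lower in CD8+ cells or detected only on the CD4+ array, 5 of 5, with sums of 36.3 on the CD8+ array and 69.6 on the CD4+ array. Nearly all of both sums came from Tnfrsf18 (difference -0.87), so they hide the larger differences of Ctla4 (-3.97) and Ikzf2 (-2.55). Levels of different probes are not comparable, and each sum given here mostly follows the brightest probes of its list. Naive T cell genes had a median of 0.18 over 6 genes and memory or effector genes -0.01 over 6. The memory or effector genes went far in both directions, from -3.61 for S100a4 to 1.76 for Ly6c2, with 1 at least 2-fold higher in CD8+ cells and 1 in CD4+ cells. Klre1 among the NK cell markers and Elane among the neutrophil markers were detected on neither array. The part of these cells in the receptor differences was not tested, and fewer cells of a type cannot be told apart from less RNA per cell.

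The IL-18 receptor genes end a row of IL-1 family receptor genes on chromosome 1, in the order Il1r2, Il1r1, Il1rl2, Il1rl1, Il18r1, Il18rap and Slc9a4. Those before Il18r1 that could be measured were higher in CD4+ cells. Il1r2, a decoy receptor for IL-1, had 3.6 on the CD8+ array, where it was not well above background, against 185.6 on the CD4+ array, at least 11.2-fold higher in CD4+ cells. Il1r1, the signalling IL-1 receptor, had 24.7 on the CD8+ array and 93.5 on the CD4+ array (difference -1.74). Il1rl1, the IL-33 receptor chain, had 27.4 on the CD8+ array and 590.8 on the CD4+ array by the probe detected on both arrays (difference -4.25), while its other probes were below background on at least 1 array, and 1 of them, below it on both, lay on the other side of 0. With normexp these values were at least 3.12-fold for Il1r2, -0.66 for Il1r1 and -2.83 for Il1rl1. Neither array detected Il1rl2 or Slc9a4. At the end of this row Il18r1 lay within the SD between probes, with a sign set by the scaling, and Il18rap was higher in CD8+ cells.

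Ifngr2 lies in another cluster, on chromosome 16, after Ifnar2, Il10rb and Ifnar1 and before Tmem50b. Ifnar2 and Ifnar1, the chains of the receptor for type I interferons, had differences of 0.13 and -0.05, and Tmem50b, a membrane protein gene, had -0.10. Ifngr2, at -0.51, was the farthest from 0 of the 4 genes measured there.

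**Figure D4:**
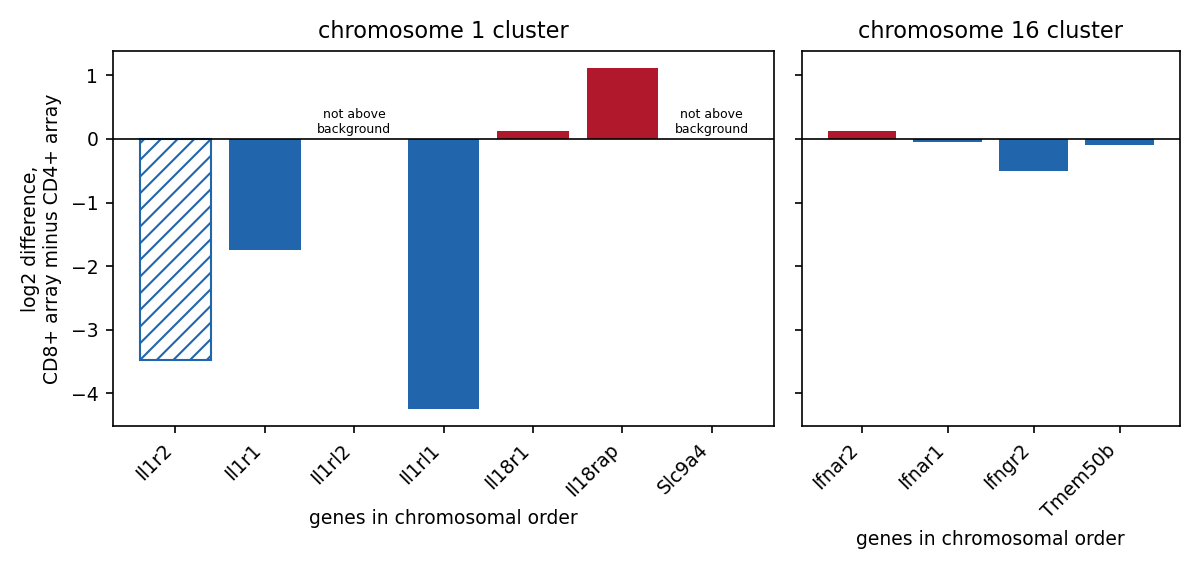
Log2 difference (CD8+ array minus CD4+ array) of genes in chromosomal order in the clusters that hold the IL-18 receptor genes and Ifngr2. Il10rb, between Ifnar2 and Ifnar1, has no named probe and is left out. The hatched bar of Il1r2 is a lower bound, and bars reach down to -4.25 at Il1rl1 and up to 1.12 at Il18rap.

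Among 17 related receptor and decoy genes, 12 were above background on both arrays with a median difference of -0.05, and 3 were at least 2-fold higher in CD4+ cells and 0 in CD8+ cells. Besides Il1rl1 and Il1r1 this was Lifr, the LIF receptor chain that pairs with gp130, with 21.1 on the CD8+ array and 55.3 on the CD4+ array (difference -1.21, but -0.35 with normexp). Lifr had 5 probes, and only the probe used passed 2-fold. The others gave -0.35, -0.77, -0.81 and -0.91, and the mean over its probes above background on both arrays was -0.77. Ifnlr1, a chain of the interferon lambda receptor, was detected only on the CD8+ array, with 38.0 on the CD8+ array and 13.9 on the CD4+ array. The plain ratio to that undetected signal was 3.10-fold after scaling, not a lower bound, and the comparison gave 1.39-fold with normexp.

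Of 15 ligand genes, 12 had a named probe and 7 were above background on both arrays (median -0.24, or -0.86 with brighter probes alone). Ifng, the interferon gamma gene, had 223.0 on the CD8+ array and 809.8 on the CD4+ array (difference -1.68). Ebi3, a subunit of IL-27, had 462.6 on the CD8+ array and 1193 on the CD4+ array (-1.19). Clcf1, a cytokine of the gp130 family, went the other way with 482.1 on the CD8+ array and 234.3 on the CD4+ array (1.22). Il10 and Il11 were detected (well above background) only on the CD4+ array. Il10 had 8.1 on the CD8+ array and 62.3 on the CD4+ array, at least 3.7-fold higher in CD4+ cells. Il11 had 15.4 on the CD8+ array and 29.1 on the CD4+ array, a plain ratio of 1.7-fold to an undetected signal. With normexp these values were -0.58 for Il10 and -0.12 for Il11 on the log2 scale.

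All 7 JAK kinase and STAT genes were above background on both arrays, none was 2-fold apart, and the median was 0.20. Stat4, the STAT that IL-12 activates, had 5387 on the CD8+ array and 3458 on the CD4+ array (difference 0.82). Tyk2, the kinase that sits on Il12rb1, had 1106 on the CD8+ array and 883.5 on the CD4+ array (0.50), and Jak1, the kinase of gp130 and Ifngr1, differed by 0.23. In the MyD88 branch used by IL-18, 11 of 11 genes were measured with a median of -0.01. Irak3, an inhibitor of that branch, had 39.3 on the CD8+ array and 110.8 on the CD4+ array (-1.32, but -0.54 with normexp), Irak2, a kinase of the branch, differed by -0.72 and Irak1 by 0.23.

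Of 10 genes that restrain cytokine receptors, all were measured with a median of 0.03, and 2 were at least 2-fold higher in CD4+ cells. Socs2 had 48.9 on the CD8+ array and 421.8 on the CD4+ array (difference -2.93, -1.94 with normexp), and Cish had 1475 on the CD8+ array and 8146 on the CD4+ array (-2.29). Both are induced by STAT5. Ptpn6, the phosphatase SHP-1, differed by 0.35.

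Among 16 genes known to respond to IL-12, IL-18 or interferons, 15 were measured on both arrays with a median of -0.02, 1 at least 2-fold higher in CD8+ cells and 2 in CD4+ cells. Eomes, a T-box factor of cytotoxic cells, had 999.7 on the CD8+ array and 112.7 on the CD4+ array (3.33, 2.69 with normexp). Gzmb, a granzyme gene, had 148.2 on the CD8+ array and 449.2 on the CD4+ array (-1.42), and Ifng, which is also in the ligand list, lay on the same side. Hlx, a homeobox factor of interferon gamma-producing cells, was detected (well above background) only on the CD4+ array, at least 1.18-fold higher there.

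**Figure D5:**
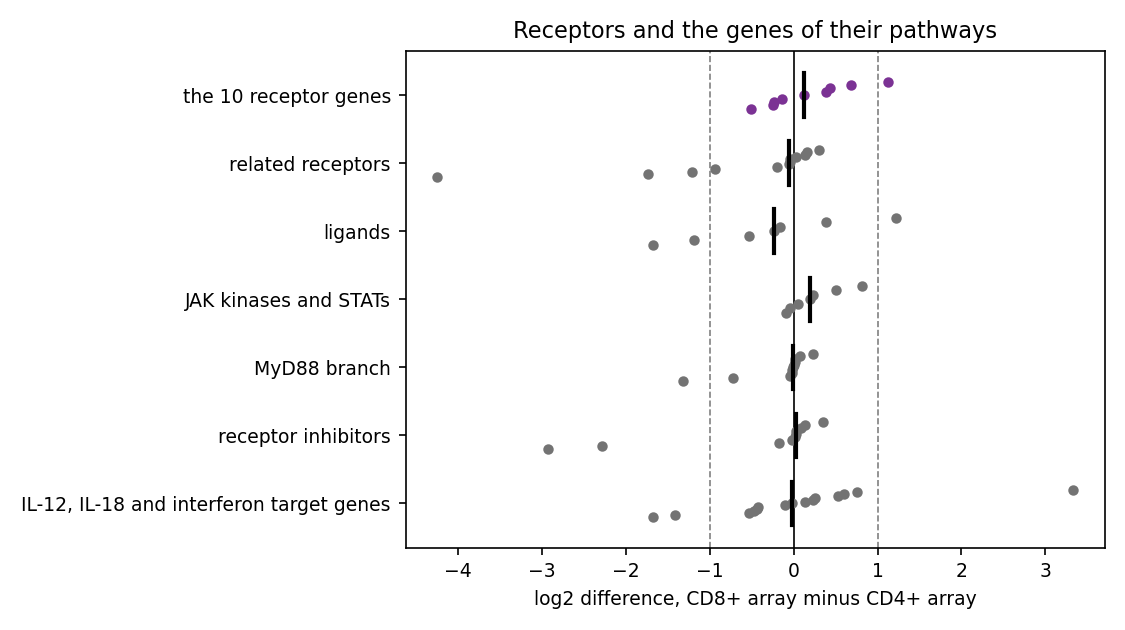
Log2 difference (CD8+ array minus CD4+ array) of the genes above background on both arrays in the receptor set and in 6 pathway lists, 1 point per gene, with a black bar at each list's median and dashed lines at 2-fold. The medians lie between -0.24 for the ligands and 0.20 for the JAK kinases and STATs.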

How the data were processed

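The intensity in the deposited scanner files is on a linear scale and, per the file headers, comes from Feature Extraction 10.1.1.1 with build mm9, while the submitters' processing notes name version 9.1. The processed intensity used here is background-subtracted by that software and not scaled between arrays, per the file headers. The intensity of the authors' series table equalled the spot's median signal at 45018 of 45018 spots on each array (exact equality), with medians of 73 (CD8+) and 80 (CD4+).

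Log2 processed signals were scaled by the 75th percentile of the non-control spots of each array, outlier spots (92 on the CD8+ and 99 on the CD4+ array) were left out, and spots of a probe were averaged. Probes were named by transcript accession through RefSeq (GRCm38.p6), which matched 60.3% of them. A gene took its brightest probe above background, preferably on both arrays. A gene above background on 1 array was compared with the dim probe's own level or the lowest detected level on the other array, whichever was higher. Where the probe's own level was the higher, the result is a plain ratio to an undetected signal. Promoter entries were found for 7 of 10 members, not for Il12rb1, Il27ra and Il10ra.

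The members, lists and naming rule (every member, then per pathway list the 3 largest differences and 2 largest bounds) were chosen with earlier results of these data known. With 1 array a group no p-value was computed. Likeness of pattern was not measured, since 2 arrays give 1 difference. The fold call was tested on simulated data with 1 probe per gene, all set as above background. The simulation did not test the scaling, the choice among probes, the detection calls or the bounds. Alternatives were normexp (offset 50, on the median signal since no mean signal is held), median scaling, the percentile over detected probes, quantile and loess (span 0.3) normalization, series values, no filter on dim probes, brighter probes alone, saturated spots left out, outliers kept, the mean over probes and a 1.5-fold threshold. Normalization ran in limma 3.58.1 (R 4.3.3) and all else in Python 3.11.15 with pandas 2.3.3 and numpy 2.4.6.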

Additional observations from a re-analysis of the deposited data

How the results depend on the processing

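The count of receptors at least 2-fold higher in CD8+ cells, which was 1 in the main setting, was 0 with normexp, 0 with the series values and 0 with brighter probes alone, where Il18rap was too dim to enter, and it was 2 at 1.5-fold. The count in CD4+ cells, 0 in the main setting, was 1 without the filter on dim probes, because Il12rb2 then entered. Both counts were the same under the other alternatives. The median of the receptors, 0.12, lay between -0.01 and 0.26. Over 10 or 11 alternatives, 8 of 9 receptors kept their sign and Il10ra changed it with median scaling alone. For a receptor with 1 probe, the filters that keep that probe and the mean over probes return the main value, so they could not change a sign. Il18r1 kept its sign under the alternatives, but before scaling its difference was -0.06. Il18rap, dim on both arrays, had log2 differences of 0.62 with normexp and 0.69 with the series values. Of the differences, bounds and list medians of other genes and single receptors, 793 values under the alternatives moved by less than the SD between probes and 69 by more, and no value at least 2-fold apart changed sign. No paired analysis was possible because each cell type had 1 array.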
